A study of Mus musculus with 76 samples.

Results

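The transcripts described are those of *Mbp*, *Mog*, *Mag*, *Mobp*, *Cnp* and *Ptgds*, 6 genes of oligodendrocytes and myelin out of 56980 genes counted in each of 76 single mouse neurons. The genes were selected on their measured values in these cells, so their levels by label and diet are a description without a test.

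Lineage-traced *Pomc* neurons were patched in slices of the hypothalamus, the content of each cell was drawn into the pipette after the recording, and each cell gave 1 sequencing library. The results text names the male mice Pomc CreERT2;tdTomato;Pomc-eGFP, and the methods name Pomc CreERT2;tdTomato. A *Pomc* promoter drives CreERT2, so tamoxifen, given at 12 weeks of age, left tdTomato in cells in which the promoter was active then, and a *Pomc* promoter also drives eGFP. The driver lines were on C57BL/6J and the tdTomato line on a mixed B6;129S6 background. Cells with tdTomato and eGFP carry the label Pomc+, and cells with tdTomato and no eGFP carry the label Ghost. The mice were fed a chow diet (CD) or a high-fat diet (HFD) for 6 months. The CD groups hold 23 Pomc+ and 15 Ghost cells, and the HFD groups hold 19 of each label. Cells came from 5 mice on each diet in 3 experiments, but a cell's label gives no mouse and no experiment, so the cells of 1 label on 1 diet were taken as 1 sample and there are no replicates. All cells share 1 kit and 1 sequencing lane.

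Oligodendrocytes wrap axons of the central nervous system in myelin, a stack of membrane held together on its inner side by basic proteins such as those of *Mbp* and *Mobp*. The enzyme encoded by *Cnp* sits in the parts of the sheath that keep cytoplasm, the adhesion protein of *Mag* faces the axon, and the glycoprotein of *Mog* lies on the outer surface and appears late in maturation. *Ptgds* encodes the lipocalin-type prostaglandin D synthase, which is made by oligodendrocytes and also by the leptomeninges and the choroid plexus. The *Mbp* gene also gives golli transcripts, which neurons and immune cells make, and counts per gene cannot separate the 2 kinds.

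The lowest, median and highest total count of a cell were 32151, 339691 and 1452605 among Pomc+ cells on CD, 4057, 123528 and 985226 among Ghost cells on CD, 10534, 393797 and 1435547 among Pomc+ cells on HFD, and 12847, 333785 and 1306718 among Ghost cells on HFD. Levels are given in counts per 1000000 counts on genes of the same cell (CPM). At these depths 1 count was 0.688 CPM in the deepest cell and 246 CPM in the shallowest, so the mean CPM of a group gives weight to shallow cells. Intervals on shares of cells are exact Clopper-Pearson intervals at 95% and those on summed counts are exact Poisson intervals at 95%. The counts are of reads and not of molecules, so intervals and limits cover counting error only. By the rule of 3 divided by the number of cells, a count of 0 in every cell allows a share of up to 13.04% of the Pomc+ cells on CD, 20% of the Ghost cells on CD and 15.8% of each HFD group, and the exact upper limits are 14.8%, 21.8% and 17.6%.

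The 6 genes together held 20246 counts, 0.0615% of all counts. All 6 had at least 1 count in at least 1 cell, and 5 passed a filter of at least 5 counts in at least 3 of the 76 cells, which *Mog* did not. The cells also carried neuronal transcripts. *Pomc* had counts in 73 cells, *Cartpt* in 73, *Uchl1* in 70, *Snap25* in 67, and *Tubb3* and *Stmn2* in 62 each, and every cell had a count of at least 1 of the 11 neuronal markers. Every cell with a count of *Mbp*, *Mog*, *Mag*, *Mobp* or *Cnp* also had a count of *Pomc*, and so did 39 of the 42 cells with *Ptgds*. In these libraries the name oligodendrocyte and myelin transcripts therefore stands for the genes and not for a type of cell: *Mog*, which defines mature oligodendrocytes, had 1 count, and *Opalin*, another such marker, had 3 counts in 1 cell.

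*Mbp* (ENSMUSG00000041607, chromosome 18) had counts in 42 of 76 cells (55.3%, interval 43.4 to 66.7) and 7700 counts in all (interval 7529 to 7874). The lowest CPM was 0 in every group, and the median and the highest were 21.8 and 577 among Pomc+ cells on CD, 26.9 and 507 among Ghost cells on CD, 21.2 and 2061 among Pomc+ cells on HFD, and 1.98 and 1179.6 among Ghost cells on HFD. The 4 groups overlapped over most of their range, and each had cells without a count beside cells above 100 CPM. Counts of *Mbp* were present in 14 of 23 Pomc+ and 8 of 15 Ghost cells on CD, and in 10 of 19 cells of each label on HFD. These shares, 60.9%, 53.3%, 52.6% and 52.6%, lay within one another's intervals. The mean CPM of *Mbp* was 105.1 in Pomc+ and 96.8 in Ghost cells on CD, and 262 in Pomc+ and 233 in Ghost cells on HFD. So *Mbp* was found in a like share of cells of each group, while its mean was higher on HFD, where some cells were higher than any cell on CD. The highest was cell 651, a Pomc+ cell on HFD, whose 2958 counts made up 41.4% of the summed CPM of *Mbp* in that group. Without it the mean of the group was 162 CPM.

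*Mobp*, which encodes the second basic protein of central myelin, lies at chr9:120149707-120181484 on the forward strand (ENSMUSG00000032517). It had counts in 17 of 76 cells (22.4%, interval 13.6 to 33.4) and 5188 counts in all (interval 5048 to 5331). The median was 0 CPM in each of the 4 groups, and the highest cell had 79.4 CPM among Pomc+ cells on CD, 275 among Ghost cells on CD, 2672 among Pomc+ cells on HFD and 310.1 among Ghost cells on HFD. Most cells of every group lacked *Mobp*, and 1 cell stood far above the rest: cell 651 again, with 3836 of the 5188 counts. *Mobp* was counted in 4 of 23 Pomc+ and 2 of 15 Ghost cells on CD, and in 7 of 19 Pomc+ and 4 of 19 Ghost cells on HFD. The mean CPM in the same order was 9.10, 19.8, 219 and 30.7. The Pomc+ mean on HFD was 82.5 CPM without cell 651, and the Ghost mean on CD was 1.56 without cell 705, which had 34 counts. The value of 310.1 CPM in Ghost cells on HFD came from 4 counts in cell 657, a shallow cell. GENCODE M21 places a transcript named *Gm38642* on the same strand with 79 exon bases in common with *Mobp*, and it had no count.

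*Cnp* lies at chr11:100574904-100591729 on the forward strand (ENSMUSG00000006782). It had counts in 31 of 76 cells (40.8%, interval 29.6 to 52.7) and 2728 counts in all (interval 2627 to 2832). Its CPM ran from 0 to 234 in Pomc+ cells on CD, from 0 to 361 in Ghost cells on CD, from 0 to 658 in Pomc+ cells on HFD and from 0 to 89.9 in Ghost cells on HFD, and the medians were 0 except for 7.67 in Pomc+ cells on HFD. The Pomc+ cells on HFD held the highest values, the Ghost cells on HFD were low throughout, and all groups overlapped at 0. *Cnp* was counted in 9 of 23 Pomc+ and 6 of 15 Ghost cells on CD, and in 10 of 19 Pomc+ and 6 of 19 Ghost cells on HFD. The mean CPM in the same order was 47.6, 83.3, 153 and 14.6. Unlike *Mobp*, *Cnp* did not have most of its signal in 1 cell: the highest cell of each group held from 21.4% to 32.4% of that group's summed CPM. An exon of the antisense gene *Dnajc7* shares 154 bases with exons of *Cnp*, and the libraries carry no strand, so reads there cannot be told apart. *Dnajc7* had 2511 counts in 43 cells, and 21 of the 31 cells with *Cnp* also had *Dnajc7*.

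*Mag* lies at chr7:30899176-30914873 on the reverse strand (ENSMUSG00000036634) and had 432 counts (interval 392.2 to 474.7) in 8 of 76 cells (10.5%, interval 4.66 to 19.7). It was counted in 3 of 23 Pomc+ cells on CD, in 0 of 15 Ghost cells on CD, in 2 of 19 Pomc+ cells on HFD and in 3 of 19 Ghost cells on HFD. The highest CPM was 251 in cell 631, a Pomc+ cell on CD, 105 in cell 670, a Pomc+ cell on HFD, and 151 in cell 720, a Ghost cell on HFD. A single cell thus carried most of *Mag* in each group that had it, and cell 631 alone had 365 of the 432 counts. Mean CPM was 12.1 in Pomc+ cells on CD, 6.71 in Pomc+ cells on HFD and 9.36 in Ghost cells on HFD, and without the highest cell of each group it was 1.19, 1.27 and 1.52. For the Ghost cells on CD, which had no count, 3 counts over their summed total are 0.639 CPM, and the exact Poisson upper limit is 0.786 CPM. *Mog* (ENSMUSG00000076439, chr17:37010743-37023398 on the reverse strand) had 1 count, in cell 631 as well, which is 1 of 76 cells (1.32%, interval 0.0333 to 7.11). The gene of the outer surface of myelin was therefore not detected at this depth in the other 75 cells, and its levels cannot be compared between groups. In Pomc+ cells on CD the Poisson upper limit for its 1 count is 0.542 CPM over their summed total. In the groups without a count, 3 counts over the summed total are 0.639 CPM in Ghost cells on CD, 0.345 in Pomc+ cells on HFD and 0.325 in Ghost cells on HFD.

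*Ptgds*, the secreted synthase, lies at chr2:25466709-25470046 on the reverse strand (ENSMUSG00000015090). It had counts in 42 of 76 cells (55.3%, interval 43.4 to 66.7), as many as *Mbp* but not the same cells, and 4197 counts in all (interval 4071 to 4326). Its lowest CPM was 0 in every group, and its median and highest were 0 and 2143 among Pomc+ cells on CD, 19.5 and 4077 among Ghost cells on CD, 4.18 and 1048 among Pomc+ cells on HFD, and 14.1 and 241 among Ghost cells on HFD. The highest cells were on CD under both labels, no Ghost cell on HFD came near them, and the groups overlapped from 0 upward. *Ptgds* was counted in 11 of 23 Pomc+ and 9 of 15 Ghost cells on CD and in 11 of 19 cells of each label on HFD. The mean CPM was 273 in Pomc+ and 519 in Ghost cells on CD, against 96.9 in Pomc+ and 70.6 in Ghost cells on HFD. Under each label the mean was higher on CD, the reverse of *Mbp*, while the shares of cells with *Ptgds*, 47.8%, 60%, 57.9% and 57.9%, lay within one another's intervals. The highest value, in cell 711, came from 113 counts in a library of 27715. The most counts, 1210, were in cell 642, a deep Pomc+ cell on HFD that held 56.9% of that group's summed CPM.

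**Figure D1:**
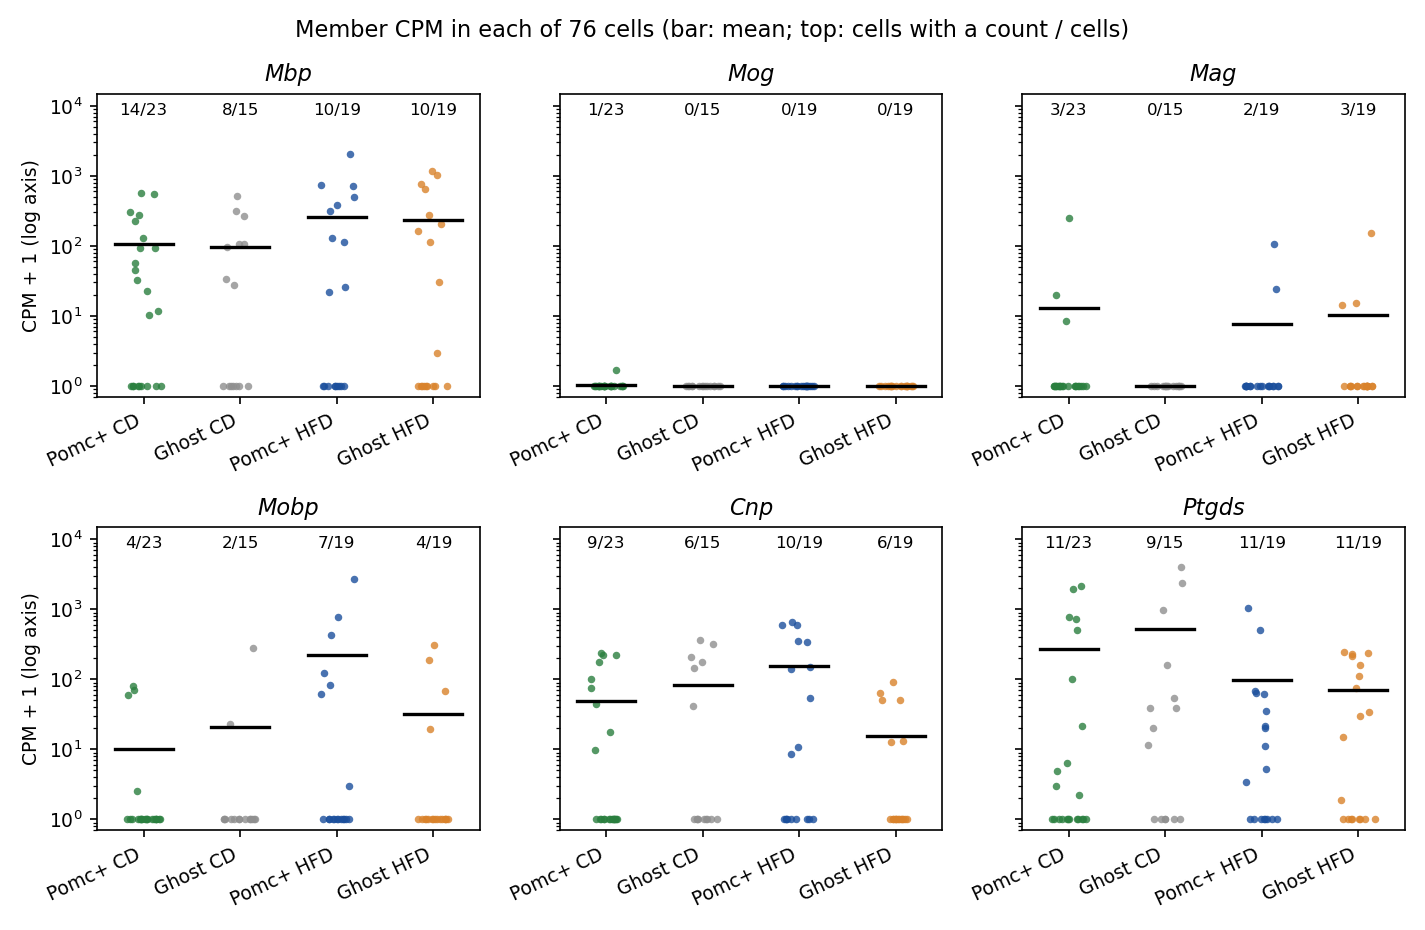
CPM + 1 of each of the 6 genes on a log axis, 1 point per cell, in the 4 groups; the bar is the mean of the group and the numbers on top are cells with a count over cells. *Mbp* and *Ptgds* were counted in 42 cells each, *Mog* in 1, and for every gene the groups overlapped at 0.

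Per kilobase of merged exons, mean CPM over the 76 cells was 138 for *Ptgds*, 20.6 for *Mbp*, 19.97 for *Cnp*, 10.1 for *Mobp*, 1.88 for *Mag* and 0.00532 for *Mog*. On this scale *Ptgds* had the highest level in each of the 4 groups, and the order of the genes below it differed between groups. In Pomc+ cells on HFD, where *Ptgds* had 58.8 and *Cnp* 41.96, the rank of *Ptgds* rested on cell 642. Without that cell the mean CPM of *Ptgds* in the group fell from 96.9 to 44.1. *Mbp* had 11.4 and *Cnp* 22.9 in Ghost cells on CD, against 27.5 and 4.01 in Ghost cells on HFD, and *Mag* with 2.96 stood above *Mobp* with 1.33 in Pomc+ cells on CD. The place of *Mag* above *Mobp* rested on cell 631, without which the mean CPM of *Mag* fell from 12.1 to 1.19. In counts pooled over all cells, not scaled by length, *Mbp* had 234 CPM, *Mobp* 158, *Ptgds* 128, *Cnp* 82.9, *Mag* 13.1 and *Mog* 0.0304.

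The next question was whether the 6 genes occur in the same cells. None of the 6 was counted in 11 cells, 1 in 25, 2 in 14, 3 in 18, 4 in 6 and 5 in 2, and no cell had all 6. Most cells with a myelin transcript thus had counts of 1 to 3 of the genes. At least 3 were counted in 26 of 76 cells (34.2%, interval 23.7 to 45.99). By group this was 6 of 23 Pomc+ cells on CD (26.1%, interval 10.2 to 48.4), 4 of 15 Ghost cells on CD (26.7%, interval 7.79 to 55.1), 10 of 19 Pomc+ cells on HFD (52.6%, interval 28.9 to 75.6) and 6 of 19 Ghost cells on HFD (31.6%, interval 12.6 to 56.6). The Pomc+ cells on HFD had the highest share, and the intervals of the 4 groups overlapped. When the counts of each cell were thinned to 40000, which leaves out 8 cells, the share of cells with at least 3 was 26.8% in all, and 15.2%, 30%, 37.5% and 27.6% in the same order of groups. At this equal depth *Mbp* was counted in 54.3% of the 68 cells, *Ptgds* in 37.9%, *Cnp* in 35.7%, *Mobp* in 19.6%, *Mag* in 8.16% and *Mog* in 0%. *Mbp* and *Ptgds* no longer had like shares after thinning: of 41 such cells with *Mbp* a mean of 36.95 over the draws kept it, against 25.8 of 37 with *Ptgds*.

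**Figure D2:**
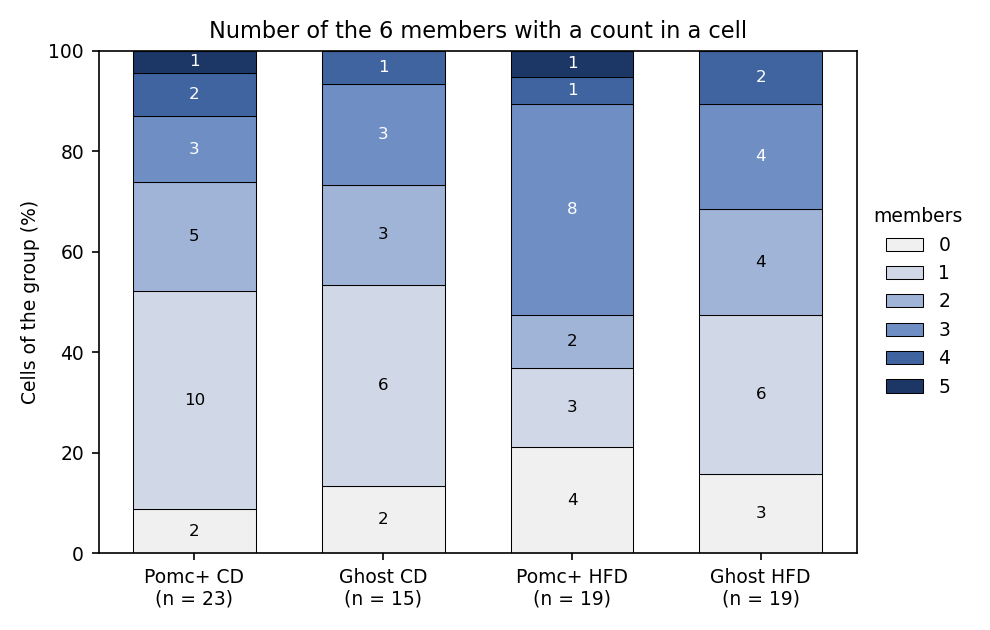
Share of the cells of each group, in percent, by how many of the 6 genes had a count in the cell; numbers in the bars are cells. At least 3 genes were counted in 10 of 19 Pomc+ cells on HFD and in 6 of 23, 4 of 15 and 6 of 19 cells of the other groups, in the order drawn.

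*Mbp* was the only one of the 6 counted in 11 cells and *Ptgds* the only one in 8, and the most common combination of several genes was *Mbp* with *Cnp* and *Ptgds*, in 8 cells. *Mbp* and *Mobp*, both basic proteins, were counted together in 13 cells, 30.95% of those with *Mbp* and 76.5% of those with *Mobp*. *Mbp* and *Cnp* shared 19 cells, 45.2% of those with *Mbp* and 61.3% of those with *Cnp*. *Mbp* and *Ptgds* shared 25 cells, 59.5% of each. As *Mbp* was counted in 55.3% of all cells, its shares among cells with *Cnp* and with *Ptgds* were near its share overall. Over the 76 cells, which share lane and kit and differ in depth, Pearson's r of log2(CPM + 1) was 0.33 between *Mbp* and *Mobp*, 0.22 between *Mobp* and *Cnp*, 0.18 between *Mbp* and *Cnp*, and -0.02 between *Mbp* and *Ptgds*. In counts this sparse these values are no finding. The r of 0.51 between *Mag* and *Mog* rests on the single count of *Mog* in cell 631. The mean of log2(CPM + 1) over the 6 genes had an r of 0.20 with total counts and 0.26 with the number of genes counted.

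Summed over the 6 genes, the lowest CPM was 0 in every group, and the median and the highest were 226 and 2143 among Pomc+ cells on CD, 263 and 4438 among Ghost cells on CD, 353 and 5329 among Pomc+ cells on HFD, and 233 and 1185 among Ghost cells on HFD. The medians were close and a few cells made the tails. The means were 447, 719, 737 and 358 CPM in the same order, and the 5 highest cells held 39.7% of the sum over all 76. The first was cell 651 (Pomc+ on HFD, 5329 CPM), with 2958 counts of *Mbp*, 3836 of *Mobp*, 850 of *Cnp*, 6 of *Ptgds* and none of *Mag* or *Mog*. That cell also had 219 counts of *Olig1* and 364 of *Olig2*, together with 6010 of *Pomc* and 4114 of *Snap25*, so transcripts of the oligodendrocyte lineage and of neurons stood side by side in 1 library. The other 4 cells were high in *Ptgds* and had no *Mbp*: cell 711 (Ghost on CD, 4438 CPM), cell 705 (Ghost on CD, 2712 CPM), cell 710 (Pomc+ on CD, 2143 CPM) and cell 703 (Pomc+ on CD, 1982 CPM). In cell 710 *Ptgds* was the only one of the 6 with a count. In these 5 cells high sums thus came from 2 different profiles, 1 led by *Mbp* and *Mobp*, in cell 651 alone, and 1 by *Ptgds* without *Mbp*. Below them, cell 647 was also led by *Mobp* and *Mbp*, but other cells were mixed. Cell 642 had 1048 CPM of *Ptgds* with 111 of *Mbp*, and cell 644 had 494 of *Mbp* with 512 of *Ptgds*.

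To set the groups against each other, the ratio of mean CPM was taken for each gene, and the share of all genes past 2-fold is given beside it. That share shows how far means of so few cells differ for any gene, and since the genes were selected from these values nothing is read from it. The median log2 ratio of all genes passing the filter was -0.18 for Ghost over Pomc+ on CD, -0.27 for Ghost over Pomc+ on HFD, 0.12 for HFD over CD in Pomc+ cells and 0.01 in Ghost cells. In the deposited normalized values these medians were -0.86, -0.55, 0.06 and 0.33, so changes are also given relative to them. The median log2 ratio over the 5 genes with a ratio, with *Mag* set at 3 counts over the summed total where a group had no count, was 0.81, -0.46, 1.32 and 0.63 in CPM, in the same order of comparisons. The first of these medians turned to -0.14 in the normalized values and to -0.83 in pooled CPM. The last turned as well in pooled CPM, where the median gene had a ratio of 0.617. Comparisons that share a group of cells are not independent of each other.

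For Ghost over Pomc+ cells on CD, which asks whether absence of the eGFP signal goes with a different content of these transcripts, 1 of 5 genes was past 2-fold higher, where 23.3% of 12119 genes were, and 1 was past 2-fold lower, where 31.5% were. In the normalized values 14.8% of all genes were higher and 46.2% lower. The higher gene was *Mobp*, 2.18-fold in mean CPM and 1.31 in log2 relative to all genes. Its direction flipped in the normalized values, with a log2 ratio of -0.38 before and 0.48 after the shift of all genes is taken off. *Mobp* rested on 1 cell, since its ratio was 0.172 without cell 705 and 3.35 without cell 663, and it was 0.522 in pooled CPM, 7.06 with the 7 genes counted in every cell taken out of the totals, 3.32 without cells 630 to 636 and 5.71 without cells 658 to 669. The lower gene was *Mag*, with no count in 15 Ghost cells. It was counted as past 2-fold with that group set at 3 counts over its summed total. In pooled CPM the Pomc+ cells had 38.2, or 3.17 without cell 631, against the upper limit of 0.786 in Ghost cells. The mean CPM has no such limit, since 1 count in the shallowest Ghost cell would have been 246 CPM. As given above, the mean of *Mag* in Pomc+ cells was 1.19 CPM without cell 631. *Mbp* had a ratio of 0.921, which was 0.563 in pooled CPM and 0.53 without cells 658 to 669. *Ptgds* had a ratio of 1.90, which fell to 0.969 without cell 711 and passed 2 when any 1 of 15 other cells was left out. It was 0.752 in pooled CPM, and its log2 ratio was -0.002 without cells under 40000 counts. *Cnp* had a ratio of 1.75, which lay between 1.33 and 2.13 when each cell was left out in turn, and was 1.05 in the normalized values, 1.09 in pooled CPM, 1.13 without cells 699 to 712 and 2.78 without cells 658 to 669.

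For Ghost over Pomc+ cells on HFD, none of the 5 genes was past 2-fold higher, where 21.4% of 12202 genes were, and 2 were past 2-fold lower, where 34.1% were. These were *Cnp*, with a ratio of 0.0955 (10.5-fold lower), and *Mobp*, with a ratio of 0.141 (7.11-fold lower). Relative to all genes the log2 ratio of *Cnp* was -3.12 in CPM and -2.92 in the normalized values, and that of *Mobp* was -2.56 and -1.29. *Cnp*, the enzyme of non-compact myelin, kept its direction when cells or runs were left out: its ratio lay between 0.0681 and 0.117 when each cell was left out in turn, and between 0.0745 and 0.204 without each run of cell numbers described below. *Mobp* depended more on single cells, with 0.373 without cell 651 and 0.0696 without cell 657, and was 0.00888 in pooled CPM and 1.63 without cells 637 to 657. *Mbp* had a ratio of 0.889, which was 0.304 in pooled CPM, 1.44 without cell 651 and 1.8 without cells 637 to 657, and its direction flipped when the 7 genes with a count in each cell were taken out of the totals (log2 ratio 0.30). *Ptgds* had a ratio of 0.728, which was 0.407 in pooled CPM, 1.6 without cell 642 and 4.24 without cells 637 to 657. *Mag*, from 18 and 21 counts, had a ratio of 1.40, which was 0.807 in pooled CPM, 3.39 with those 7 genes taken out, 0.226 without cell 720 and 7.37 without cell 670, and its direction flipped in the normalized values (log2 ratio -0.62).

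For HFD over CD within Pomc+ cells, which asks how the diet goes with the content of cells that have the eGFP signal, 3 of 5 genes were past 2-fold higher, where 28.6% of 12227 genes were, and 1 was past 2-fold lower, where 22.4% were. *Mobp* was 24.04-fold higher, *Cnp* 3.21-fold and *Mbp* 2.49-fold, and relative to all genes their log2 ratios were 4.47, 1.56 and 1.20 in CPM and 3.78, 0.995 and 0.93 in the normalized values. The 3 higher genes are the basic proteins and the enzyme of myelin, and they differed in how far they rested on 1 cell. Without cell 651 *Mobp* was 9.06-fold higher and *Mbp* 1.54-fold, and without cell 663 *Mobp* was 37.04-fold higher. Without cells 637 to 657 the ratio was 1.74 for *Mobp*, no longer past 2-fold, and 0.908 for *Mbp*, whose direction turned. With those 7 genes taken out *Mobp* was 40.8-fold higher. In the normalized values *Mobp* was 14.4-fold, *Cnp* 2.08-fold and *Mbp* 1.998-fold higher, *Ptgds* had a ratio of 0.524 and *Mag* of 0.306, so that of the lower genes only *Mag* was past 2-fold there. *Cnp* lay between 2.62-fold and 3.90-fold when each cell was left out in turn. The lower gene was *Ptgds*, with a ratio of 0.355, a log2 ratio of -1.61 relative to all genes in CPM and -0.995 in the normalized values. The ratio of *Ptgds* was 0.162 without cell 642 and 0.516 without cell 710, and in pooled CPM it was 1.14, so that its direction flipped there. It was 0.0734 without cells 637 to 657 and 12.7 without cells 699 to 712, where its direction turned too. *Mag* had a ratio of 0.556 in mean CPM and 0.0632 in pooled CPM, and the former was 5.63 without cell 631, 0.105 without cell 670 and 0.482 without cell 718, and lay between 0.118 and 17.8 without each run.

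For HFD over CD within Ghost cells, 2 of 5 genes were past 2-fold higher, where 29.8% of 12048 genes were, and 2 were past 2-fold lower, where 27.9% were. In the normalized values 35.9% of all genes were higher and 21.4% lower. *Mbp* was 2.40-fold higher, with log2 ratios relative to all genes of 1.25 in CPM and 0.32 in the normalized values, and its ratio was 1.57 in the normalized values, 1.84 in pooled CPM, 4.28 with those 7 genes taken out, 4.8 without cells 658 to 669, 1.78 without cells 637 to 657, 1.899 without cells 699 to 712, 1.86 without cell 655 and 1.94 without cell 640. *Mag* was counted as past 2-fold higher with the CD group set at 3 counts over its summed total. It had 18 counts on HFD, of which cell 720 had 12, and pooled CPM was 1.95 there and 0.656 without that cell, against the upper limit of 0.786 on CD, so the difference rested on cell 720. The genes that were lower were *Ptgds*, with a ratio of 0.136, and *Cnp*, with a ratio of 0.175. Their log2 ratios relative to all genes were -2.89 and -2.53 in CPM and -2.82 and -2.81 in the normalized values. In pooled CPM the ratio was 0.617 for *Ptgds*, which is not past 2-fold, and 0.398 for *Cnp*. *Ptgds* had a ratio of 0.267 without cell 711 and of 4.86 without cells 699 to 712, where its direction turned. *Cnp* lay between 0.125 and 0.230 when each cell was left out in turn, so it was lower on HFD in Ghost cells and higher on HFD in Pomc+ cells. That difference between the labels was not tested. *Mobp* had a ratio of 1.55, which was 5.24 in the normalized values, 0.459 in pooled CPM, 19.7 without cell 705 and 0.769 without cell 657, and its direction flipped with those 7 genes taken out of the totals (log2 ratio -0.22).

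The cells carry numbers from 630 to 720, and the diet changes with the number in 8 runs, each on 1 diet only. The labels do not say what a run stands for, so run and diet cannot be told apart, while both labels occur in each run. *Ptgds* was concentrated in 1 run: among the 12 cells 699 to 712, on CD, it was counted in 10, with a mean of 1149 CPM and a median of 758. In the other runs on CD its mean was 25.1 CPM in 630 to 636, 8.65 in 658 to 669 and 2.44 in 684 to 692. In the runs on HFD it was 111 CPM in 637 to 657, 23.5 in 670 to 673, 34.3 in 693 to 698 and 74.2 in 713 to 720. The highest *Ptgds* cells of both labels were thus in the same run, where Pomc+ cells had a mean of 770.4 and Ghost cells 1905 CPM. Outside it, cells 642 and 644 of run 637 to 657 had 1048 and 512 CPM. Without cells 699 to 712 the HFD over CD ratio of *Ptgds* turned from 0.355 to 12.7 in Pomc+ cells and from 0.136 to 4.86 in Ghost cells.

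Run 699 to 712 also differed in other measures. Its neuronal markers summed to a mean of 5489 CPM, against 19113, 20281 and 19153 in the other runs on CD and 6840 to 11778 in those on HFD. By group, *Pomc* and *Cartpt* made up most of this sum, with means of 11652 and 3447 of 17830 CPM in Pomc+ cells on CD. The median number of genes in run 699 to 712, 1843.5, was the lowest of the 8 runs. Its median total of 104370 counts was the lowest but for 96546 in run 684 to 692. The summed CPM of 7 choroid plexus markers had a mean of 1950.1 there and of 47.9 or less in each other run. Most of it was in cell 700, and without that cell the mean of the run was 252 CPM. *Ttr*, the most abundant of these, was counted in 5 of the 12 cells with a mean of 1791 CPM, which was 218 without cell 700. Meningeal fibroblast markers were counted in 7 of the 12 with a mean sum of 93.8 CPM, 35.2 without cell 700. In cells 701, 703, 706, 711 and 712 this sum was 1 count, which was 246 CPM in the shallow cell 712. These markers also had a mean of 83.96 in run 684 to 692, where *Ptgds* was low, from cell 684. Over all 76 cells *Ptgds* had an r of 0.43 with the summed meningeal markers, 0.35 with the summed choroid plexus markers and -0.42 with *Pomc*. The part of these measures in the level of *Ptgds* was not tested.

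*Mbp* and *Mobp* had their highest means in another run, cells 637 to 657 on HFD, which had 21 cells. The mean CPM of *Mbp* there was 341, against 37.8 to 164 in the runs on CD, and against 75.4, 46.9 and 212 in the other runs on HFD. The mean of *Mobp* was 209, against 36 or less in each other run, and was 85.97 without cell 651. The medians of both there were 0 CPM and *Mbp* was counted in 10 of the 21 cells (47.6%), against 6 of 8 (75%) and a median of 119 CPM in run 713 to 720. Without this run the HFD over CD ratio in Pomc+ cells was 0.908 for *Mbp* and 1.74 for *Mobp*, and the Ghost over Pomc+ ratio of *Mobp* on HFD was 1.63. Within it the mean of *Mobp* was 401 CPM in 10 Pomc+ cells, or 149 without cell 651, and 34.3 in 11 Ghost cells, or 6.74 without cell 657. *Mbp* had a mean of 411 in the Pomc+ and 277 in the Ghost cells of this run, but in the 3 other runs on HFD it was higher in Ghost cells, with 8.15 against 277, 0 against 58.6 and 167 against 288 in order of number. *Ptgds* likewise had 166 in Pomc+ and 60.1 in Ghost cells of this run, and 20.3 against 33, 0 against 42.9 and 23.9 against 158 in the others. Of those runs, 670 to 673 had 1 Ghost cell and 693 to 698 had 1 Pomc+ cell. In 713 to 720 the *Mbp* mean of Ghost cells was 55.6 without cell 720, against 114 in Pomc+ cells without cell 714. The direction of *Mbp* there thus rested on cell 720. The *Ptgds* mean of Ghost cells in 713 to 720 was 117 without cell 715, still above that of Pomc+ cells. *Mobp* was lower in Ghost cells in 2 runs on HFD, higher in 1 and without a count in 1. Within the 4 runs on CD the Ghost mean was lower in 3 for *Mbp*, higher in 3 for *Cnp* and for *Ptgds*, and for *Mobp* lower in 2, higher in 1 and without a count in 1. The 3 highest cells of *Cnp*, 645, 650 and 651, were Pomc+ cells of run 637 to 657. *Cnp* was counted most often in cells 658 to 669 on CD, 9 of 12 with a mean of 128 CPM, and in cells 713 to 720 on HFD, 6 of 8 with a mean of 76.1. Within the runs on HFD its mean was 200.05 CPM in 10 Pomc+ and 10.3 in 11 Ghost cells of 637 to 657, and 112 in 5 Pomc+ and 16.7 in 3 Ghost cells of 713 to 720. It was 114 in 3 Pomc+ cells and 62.7 in 1 Ghost cell of 670 to 673, and 0 in 1 Pomc+ cell and 12.6 in 4 Ghost cells of 693 to 698. *Cnp* was thus higher in Pomc+ cells in 3 of the 4 runs on HFD, and the exception had a single Pomc+ cell. In 670 to 673 the Pomc+ mean came from cell 673 alone and was 0 without it, so the direction there rested on that cell. In 713 to 720 the Pomc+ mean was 52.7 CPM without cell 718. Leaving out any run left *Cnp* between 2.1-fold and 8.54-fold higher on HFD in Pomc+ cells and at a ratio between 0.128 and 0.294 in Ghost cells. *Mag* was counted in 2 of 6 cells of the first run and in 0 of 21 of cells 637 to 657, where the means of *Mbp* and *Mobp* were highest.

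**Figure D3:**
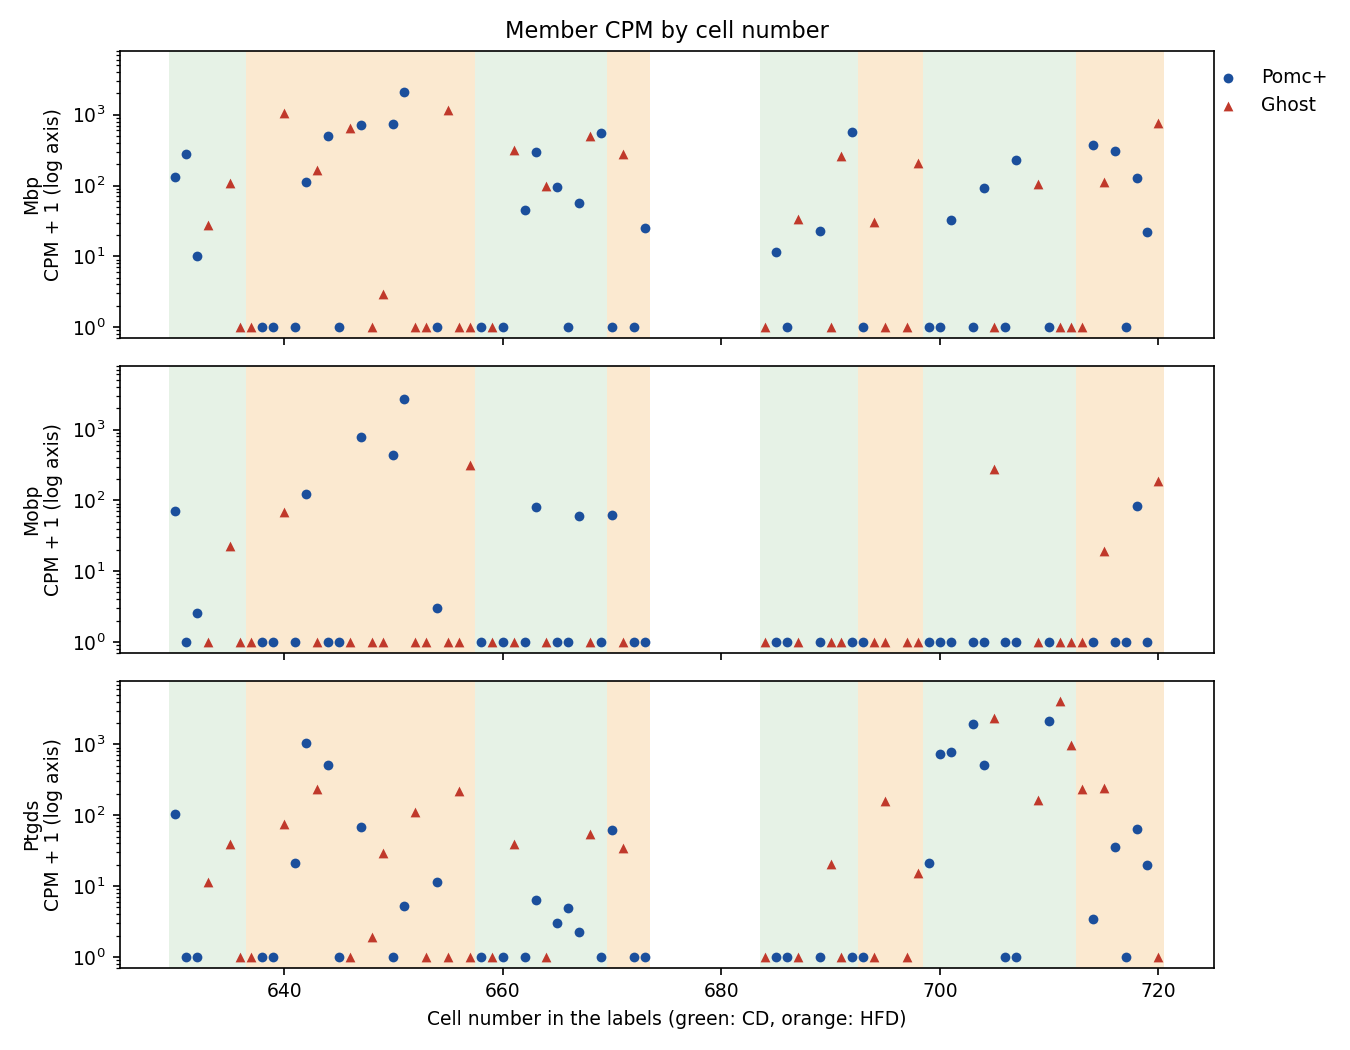
CPM + 1 of *Mbp*, *Mobp* and *Ptgds* on a log axis against the cell number in the labels, 1 point per cell, circles for Pomc+ and triangles for Ghost, with the diet as background colour. *Ptgds* is high in cells 699 to 712 on CD under both labels, and *Mobp* in some of cells 637 to 657 on HFD, most of all in cell 651.

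Other genes of myelin and of the lineage were set beside the 6. Of 28 other myelin genes 27 had a count and *Anln* had none. *Tubb4a* was counted in 57 cells, *Qdpr* in 45, *Trf* in 19 and *Enpp2* in 18, of which *Tubb4a* and *Qdpr* are also made by neurons and *Enpp2* by the choroid plexus. The 28 genes summed to a mean of 1205, 617, 720.4 and 672 CPM in Pomc+ CD, Ghost CD, Pomc+ HFD and Ghost HFD cells, the first of which was 640 without cell 700, and their median log2 ratio was -0.51 for Ghost over Pomc+ on CD, 0.12 on HFD, -0.06 for HFD over CD in Pomc+ cells and -0.11 in Ghost cells.

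Of the 8 transcription factors of oligodendrocytes, all had a count, *Olig1* in 10 cells, *Myrf* and *St18* in 7 each, *Nkx6-2* in 6 and *Olig2* in 4, and 3 cells had at least 3 of them. *Olig1* was present in 7 of the 42 cells with *Mbp* and in 7 of the 31 with *Cnp*, so most cells with these myelin transcripts lacked it. The mean sums of the 8 factors were 18.01, 93.4, 73.5 and 23.5 CPM, and without the highest cell of each group 11.4, 29.7, 50.3 and 16.2. The second rested on cell 712, where 4 counts of *Sox10* were 985.95 CPM. Of 10 precursor markers 9 had a count and *Matn4* had none. *Ptprz1*, which astrocytes also make, was counted in 27 cells, *Lhfpl3* in 14, *C1ql1* and *Vcan* in 4 each and *Bmp4* and *Pdgfra* in 2 each, and the mean sums were 91.6, 53.5, 154 and 70.4 CPM, or 47.2, 40.6, 131 and 46.01 with the highest cell of each group left out. No cell had 3 of the precursor markers.

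Markers of other cells were present in the same libraries as the myelin transcripts. All 12 astrocyte markers had a count, 68 cells had at least 1 and 49 at least 3, with *Aldoc* in 56 cells, *Slc1a2* in 43, *Slc1a3* in 36, *Gfap* in 32 and *Agt* in 20. Their mean sums were 937, 528, 1279 and 395 CPM in Pomc+ CD, Ghost CD, Pomc+ HFD and Ghost HFD cells. Pomc+ cells on HFD were highest and Ghost cells on HFD lowest, as for *Cnp*, but on CD the order differed. There the astrocyte sum was lower in Ghost cells, while *Cnp* had 47.6 CPM in Pomc+ and 83.3 in Ghost cells. Across the 76 cells *Cnp* had an r of 0.42 with the summed astrocyte markers and 0.39 with the summed other myelin genes. The mean of the 6 genes had 0.37 and 0.24. The part of astrocyte transcripts in the level of *Cnp* was not tested. All 12 microglial markers had a count, with *Ctss* in 28 cells, *C1qb* in 27, *C1qa* in 26 and *Tyrobp* in 24. They were found in 57 cells, 31 of which had at least 3, and summed to a mean of 313, 242, 2035 and 2047 CPM, and without the highest cell of each group to 192, 97.96, 1338 and 1592 CPM. *Ctss* was the most abundant. The r of *Mbp* with their sum was 0.12.

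Of 7 choroid plexus markers *Ttr* was counted in 12 cells, *Clic6* in 10, *Kl* and *Otx2* in 4 each, *Sostdc1* in 3 and *Folr1* in none. Their mean sums were 1009, 58.7, 26.4 and 22 CPM, and 1 cell, 700, had 20626 CPM. Leaving out the highest cell of each group gave 117, 21.9, 10.2 and 13.4. Cell 700 is in the run where *Ptgds* was high. Of 10 meningeal fibroblast markers *Col1a2* was counted in 7 cells, *Col1a1* and *Igfbp2* in 4 each, *Dcn*, *Slc6a13*, *Igf2* and *Foxc1* in 2 each, and *Lum*, *Col3a1* and *Slc22a6* in none. Those 10 summed to a mean of 37.3, 63.7, 9.24 and 26.3 CPM. These means rested on single cells, such as 700 and 684, and without the highest cell of each group they were 5.38, 20.6, 6.35 and 6.13 CPM. Of 10 tanycyte and ependymal markers *Vim* was counted in 44 cells, *Col23a1* in 6, *Dynlrb2* in 5, *Crym* and *Dio2* in 4 each and *Rax* in none, with mean sums of 117, 85.8, 156 and 68.8 CPM, or 71.3, 59.8, 102.4 and 53.1 with the highest cells left out. Of 11 endothelial and mural markers *Itm2a* was counted in 11 cells, *Cldn5* in 4, *Flt1*, *Abcc9* and *Pdgfrb* in 2 each and *Cdh5* and *Rgs5* in none, with mean sums of 12.1, 1.46, 42.4 and 52.6 CPM, or 6.21, 0.29, 28.5 and 38.3 in the same way. Of 5 erythrocyte markers *Hbb-bs* was counted in 26 cells, *Hba-a1* and *Hba-a2* in 25 each, *Hbb-bt* in 9 and *Alas2* in 3, with mean sums of 38.7, 17.4, 246 and 260 CPM, or 24.9, 4.89, 191 and 127 in the same way. The 11 neuronal markers summed to a mean of 17830, 11137, 8143 and 7699 CPM, with *Pomc* the most abundant. *Pomc* and *Cartpt* made up most of the sum in each group. The median log2 ratio of the 11 genes was -0.45 for Ghost over Pomc+ on CD and -0.24 on HFD. For HFD over CD it was -0.07 in Pomc+ cells and -0.01 in Ghost cells.

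The genes most like the 6 were sought among 9016 genes outside these lists with a count in at least 10 cells, by Pearson's r of log2(CPM + 1) with the mean of the 6 over 76 cells. The highest were *Phgdh* (0.46), *Adipor2* (0.43), *Plpp3* (0.42), *Cct2* (0.42), *Gsta4* (0.41), *Cmbl* (0.41), *Anapc13* (0.40), *Dusp14* (0.40), *Ppa1* (0.40) and *3110040N11Rik* (0.39). The median r over the 9016 genes was 0.06, so these are the upper end of values that are all moderate, from cells that share lane and kit and differ in depth. By Spearman's rho 6 of the 10 were again among the 10 highest. *Mbp* alone was most like *Sparcl1* (0.45), *Pdxp* (0.45) and *Plpp3* (0.44), and *Ptgds* alone was most like *Mef2c* (0.38), *Rbms1* (0.36) and *Fbxw7* (0.34). The nearest genes of *Mbp* and of *Ptgds* were thus different ones.

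*Mobp* and *Cnp* were the genes past 2-fold lower in Ghost than in Pomc+ cells on HFD, which for *Mobp* turned without cells 637 to 657, and the 300 bases around their starts are shown, from RefSeq on GRCm38.p6. The windows are chr9:120149492-120149791 for *Mobp* and chr11:100574689-100574988 for *Cnp*, both on the forward strand. Motifs searched on both strands were ACAAAG and ACAATG, cores bound by Sox10, and CTGGCAC and CTGGTAC, bound by Myrf, and matches are in capitals.
Mobp: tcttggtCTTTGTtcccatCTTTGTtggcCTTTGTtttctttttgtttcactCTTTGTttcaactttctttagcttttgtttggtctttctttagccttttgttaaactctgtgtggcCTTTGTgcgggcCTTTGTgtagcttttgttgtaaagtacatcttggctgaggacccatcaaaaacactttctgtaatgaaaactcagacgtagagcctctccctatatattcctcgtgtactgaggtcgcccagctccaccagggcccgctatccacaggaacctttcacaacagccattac
Cnp: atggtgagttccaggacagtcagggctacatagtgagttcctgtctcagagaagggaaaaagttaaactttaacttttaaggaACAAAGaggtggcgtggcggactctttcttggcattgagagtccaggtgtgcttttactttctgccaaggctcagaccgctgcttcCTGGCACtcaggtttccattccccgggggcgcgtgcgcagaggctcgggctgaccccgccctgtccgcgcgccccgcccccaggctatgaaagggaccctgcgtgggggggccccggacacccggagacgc
The *Mobp* window held 6 matches of ACAAAG, all on the reverse strand, and the *Cnp* window held 1 of ACAAAG and 1 of CTGGCAC, both on the forward strand. *Mog* had 1 match of CTGGTAC and *Ptgds* 1 of ACAAAG, and of 3 windows of *Mag* 2 overlapping ones held the same 2 matches and 1 held none. The windows described here did not include one for *Mbp*. Among 32851 promoters of the same length ACAAAG was found in 18.7%, ACAATG in 12.6%, CTGGCAC in 5.01%, CTGGTAC in 2.24% and any of the 4 in 33.6%. A match describes letters in the window and shows no binding.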

How the data were processed

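Patch-seq libraries of 76 single cells were analysed. The authors' deposited raw table holds 1 count per gene and cell without normalization, and the deposited normalized table holds a signal, the count divided by 1 size factor per cell (DESeq2). The submitters' notes name cutadapt 2.10, STAR 2.7.5a, GRCm38 and mm10; the counting program and annotation are not given in the sources used here. Symbols matched 52073 of 56980 identifiers, and positions and exon lengths are from GENCODE M21. The 6 genes and all lists were chosen with earlier results of these data known. Python 3.11.15, numpy 2.4.6, pandas 2.3.3 and scipy 1.17.1 were used, and the code was tested on simulated data. CPM used all counts on genes. Ratios are of mean CPM over cells, and a group without a count was set to 3 counts over its summed total. Genes past 2-fold were counted among genes holding 5 counts or more in 3 cells or more, taken as called when past 2-fold. Thinning used 20 draws. Main values use all cells, and no doublet caller was run. Alternatives were values within runs of cell numbers, the normalized values, CPM with the 7 ubiquitous genes taken out, pooled CPM, leaving out each cell in turn, leaving out cells with fewer than 1000 genes, minimum counts of 2 and 5, no filter beyond 1 count, Spearman's rho, a pseudocount of 10 and genes counted in at least 20 cells. Leaving out cells under 40000 counts, leaving out each run of cell numbers, list sums, pooled CPM and run means without the highest cell, and the share of all genes past 2-fold in normalized values were alternatives added after seeing the data. The rule for naming genes covers the 6 in every group, up to 5 of each other list among those counted in the most cells with ties and all with no count, the 10 most like the 6, the 3 most like *Mbp* and *Ptgds*, and the 5 cells with the highest sums. *Opalin*, *Sox10*, *Dnajc7*, *Gm38642* and further cell numbers were named after their values were seen.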

Additional observations from a re-analysis of the deposited data

How the results depend on the processing

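Means over so few cells moved with single cells, shallow cells and runs of cell numbers, and the cause was not tested. Cells could not be paired by mouse, and labels were set side by side within runs only. The log2 ratio of the summed CPM of the 6 genes for Ghost over Pomc+ on CD was 0.69, and became -0.64 in pooled CPM, 0.054 without cells under 40000 counts and -0.18 without cells 699 to 712, with a range of 0.019 to 0.96 when each cell was left out in turn. On HFD it was -1.04, and became -2.52 in pooled CPM and 0.41 without cells 637 to 657, with a range of -1.24 to -0.43. For HFD over CD in Pomc+ cells it was 0.72, and became 1.82 in pooled CPM, -0.86 without cells 637 to 657 and 1.58 without cells 699 to 712, with a range of 0.11 to 0.99. In Ghost cells it was -1.01, and became -0.061 in pooled CPM, -0.23 without cells under 40000 counts and 0.73 without cells 699 to 712, with a range of -1.20 to -0.34. Among ratios past 2-fold, signs also turned for *Mobp* in Ghost over Pomc+ on CD (-0.38 in normalized values, -0.94 pooled, -2.54 to 1.75 leaving out each cell in turn, the lowest without cell 705, -2.81 without cells 699 to 712) and on HFD (0.71 without cells 637 to 657), for *Mbp* in HFD over CD in Pomc+ cells (-0.14 without cells 637 to 657), and for *Ptgds* in HFD over CD in Pomc+ cells (0.19 pooled, 3.67 without cells 699 to 712) and in Ghost cells (2.28 without cells 699 to 712). At 5 counts or more, 23.7% of cells had at least 3 of the 6 genes. The share of all genes past 2-fold higher in Ghost cells on CD was 14.8% in normalized values. *Cnp*, where past 2-fold, kept its direction under each scaling and pooling and when cells or runs were left out, but within cells 693 to 698, with 1 Pomc+ cell, it was 0 CPM in Pomc+ and 12.6 in Ghost cells. Within cells 670 to 673 its higher Pomc+ mean rested on cell 673. Leaving out cells with fewer than 1000 genes moved no result beyond its limits. In the shallowest cell 1 count was 246 CPM, and *Mog* had 1 count in all.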
